A study of Mus musculus with 12 samples.

Results

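Glutamate receptors and the scaffold proteins under them were followed in the brains of R6/2 mice, a model of Huntington's disease (HD), and of wild-type (WT) mice. The genes were taken by symbol alone: AMPA (Gria), NMDA (Grin), kainate (Grik), delta (Grid) and metabotropic (Grm) glutamate receptors, and the Dlg, Dlgap, Shank and Homer scaffolds. This gave 43 of the 23282 genes in the count tables. They were 4 AMPA, 8 NMDA, 5 kainate, 2 delta and 8 metabotropic receptor genes, and 5 Dlg, 5 Dlgap, 3 Shank and 3 Homer genes. The NMDA group of 8 holds Grin1os, a transcript antisense to Grin1 that the symbol rule also takes.

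The series held 12 libraries of brain tissue. HD (R6/2) mice gave 2 libraries each of striatum and cortex at 8 weeks (pre-symptom, preHD) and 2 each at 13 weeks (post-symptom, postHD). WT mice gave 1 library for each of the same regions and ages (preWT and postWT). The R6/2 transgene holds exon sequence from the start of human HTT with an expanded CAG repeat, driven by the human promoter, and the mice keep both copies of their own Htt gene. Within a genotype, age and symptom stage cannot be told apart, since each stage was sampled at 1 age. The WT groups had no replicate within a region and age, so in the tests by region their spread was taken from the HD libraries. In the tests over both regions the spread came from all 12 libraries, with region as an additive term. The labels do not say whether replicates came from different mice, or whether striatum and cortex of a number came from the same mouse. By sex-linked genes, replicate 1 was male and replicate 2 female in each HD group. The replicates of an HD group were therefore not from the same mouse. The p-values measure the spread between these libraries, in which mouse, sex and technical differences cannot be told apart.

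Glutamate is the main excitatory transmitter of the brain. AMPA receptors carry most of the fast synaptic current, NMDA receptors admit calcium when the cell is already depolarised, and kainate receptors act on both sides of the synapse. Metabotropic receptors signal through G proteins. Group I receptors (such as Grm5) mostly sit beside the synapse on the receiving cell and raise calcium, whereas group II (Grm2 and Grm3) and group III (Grm4, Grm6, Grm7 and Grm8) receptors mostly dampen release. Below the receptors, Dlg proteins bind their tails, Dlgap proteins link Dlg to Shank, and Homer ties Shank to group I receptors. The striatum receives its glutamate from cortex and thalamus, and its projection neurons are the cells most affected in HD.

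The libraries held 8814386 to 12091201 counts, of which the 43 genes made up 0.366% to 0.647%. Values below are CPM, counts scaled to a common library size with TMM factors. QuantSeq reads come from the 3′ end, about once per transcript, so CPM needs no length term. In every library 11 of the genes had at least 1000 counts. Grm6 had no count in any library, which allows at most 0.254 to 0.351 CPM (3 counts, counting error only). Dlgap5 reached 5 counts, Grin2d 4 and Grin2a 34 in their highest library, and these genes carry little weight below. Counts of the ribosomal RNA gene Rn45s took 10.5% to 15.2% of the HD libraries and 4.32% to 5.62% of the WT libraries.

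Replicate 2 of preHD striatum stood apart from its replicate. The summed level of 9 striatal projection neuron markers was 7335 CPM in replicate 1 and 2309 CPM in replicate 2, beside 7114 and 7737 CPM in the WT striatum libraries. In the same library 7 oligodendrocyte markers summed to 19780 CPM (3180 CPM in replicate 1) and 5 thalamus markers to 1883 CPM (130 CPM in replicate 1). Of the 39 glutamate receptor and scaffold genes tested, 11 differed by more than 1 log2 unit between these replicates, and the median absolute difference was 0.495, against 0.121 to 0.265 in the other HD groups. Grm5 was lower by 1.47 log2 units in replicate 2 and Homer2 was higher by 1.83. Median estimates of the main comparisons are therefore given with and without this library. So are the changes of single genes where it matters for the call.

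From 8 to 13 weeks in HD mice, 12 of the 39 genes tested fell over both regions together and none rose (edgeR quasi-likelihood test, adjusted p under 0.05). They were Grm4, Grm3 and Grm7 among the metabotropic receptors, Gria3 among the AMPA subunits, Grin1, its antisense partner Grin1os and Grin2b in the NMDA group, and the scaffolds Dlg4, Dlgap3, Dlgap4, Shank3 and Homer1. Over all 13944 genes tested, 4.53% fell, 1.93% rose and 6.45% changed in either direction. The estimate was negative for 36 of the 39, with a median of -0.55 log2 units, whereas 49.7% of all genes had a negative estimate. The count was 7 without replicate 1 and 6 without replicate 2 of postHD cortex, and 6 without either preHD cortex library. Without replicate 1 of preHD striatum the median estimate was -0.54 log2 units, and without replicate 2 it was -0.53. In both fits more of the genes passed, as did more of all genes, so the rise was not particular to replicate 2. The genes and changes that follow are those without replicate 2. All 12 were kept, and Gria2, Dlg2 and Dlgap2 were added. The log2 changes of the 12 were then -2.01 for Grm4, -1.43 for Grm3, -0.57 for Grm7, -1.13 for Gria3, -0.67 for Grin1, -0.79 for Grin1os and -0.68 for Grin2b. Among the scaffolds they were -0.95 for Dlg4, -1.14 for Dlgap3, -0.53 for Dlgap4, -1.09 for Shank3 and -1.13 for Homer1.

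**Figure D1:**
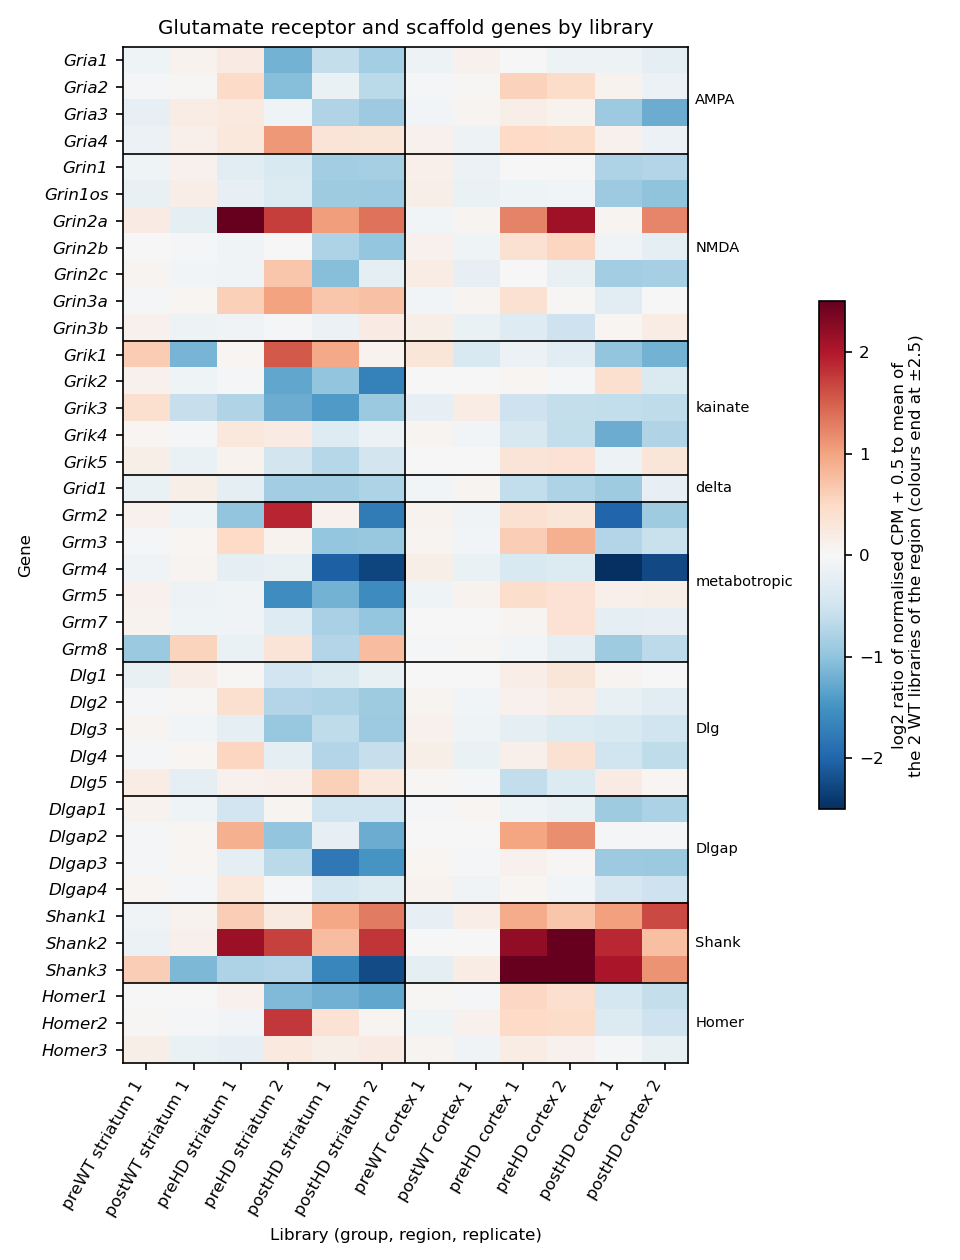
Level of glutamate receptor and scaffold genes that passed the filter on low counts in each of the 12 libraries, as the log2 ratio of CPM (plus 0.5) to the mean of the WT libraries of the same region, with colours ending at ±2.5. Rows are genes by class and columns are libraries. The 4 postHD columns are mostly on the low side, with Grm4 the deepest among the abundant genes. Shank1, Shank2 and Grin2a are above WT in every HD library, a pattern of 6.0% of all genes. For Grin2a, replicate 1 of postHD cortex and the postWT cortex library both had 6 counts.

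In the individual libraries, the postHD values were below the preHD values in both regions for 17 of the 39 genes (43.6%), compared to 11.3% of all genes tested. The reverse held for Dlg5 and Shank1 (5.13%), compared to 9.35% of all genes. In cortex alone 32 of the 39 genes (82.1%) separated downwards, compared to 28.9% of all genes. In striatum 18 (46.2%) did, compared to 19.3% of all genes, and against replicate 1 of preHD striatum alone 29 (74.4%) did, compared to 38.1%.

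Markers of cell types moved over the same libraries. Of 8 tested striatal projection neuron markers, 3 fell with age in HD mice, among them Penk (-1.81 log2 units) and Ppp1r1b (-1.78). Their list summed to 1386 and 1411 CPM in postHD striatum. Cortical excitatory neuron markers summed to 18470 and 14820 CPM in WT cortex, 14290 and 15570 CPM in preHD cortex and 6393 and 5982 CPM in postHD cortex, with 1 of 8 tested, Nrgn, past the test. Over both regions together 3 of 6 interneuron markers fell (Sst, Gad1 and Npy). Their list went from 1124 and 1229 CPM in preHD cortex to 418 and 408 CPM in postHD cortex. In striatum it went from 1136 and 1231 CPM to 677 and 825 CPM, with 0 of 6 past the test there. Gad1 was at 163 to 410 CPM in striatum, and the cells behind it there were not tested. Of 7 astrocyte markers only the glutamate transporter gene Slc1a2 fell (-0.92), and no oligodendrocyte, oligodendrocyte precursor, microglia, endothelium, thalamus or choroid plexus marker passed. The part of these shifts in the receptor results was not tested. In bulk tissue, fewer cells of a type and less RNA per cell cannot be told apart.

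Among the metabotropic receptors the level of Grm4 changed most. Grm4 encodes mGlu4, a group III receptor that lowers transmitter release from axon terminals, and lies at chr17:27422387-27521403 on the minus strand (GRCm38). In striatum Grm4 was at 175 and 195 CPM in the WT libraries of 8 and 13 weeks, at 159 and 162 CPM in preHD (161 ± 2.08, SD, n = 2), and at 44.7 and 37.4 CPM in postHD (SD 5.11). In cortex Grm4 was at 73.2 and 58.4 CPM in WT, at 50.7 and 51.9 CPM in preHD, and at 10.9 and 13.4 CPM in postHD. The postHD libraries of each region lay below every other library of that region, and the postHD striatum was below the WT cortex. The fall from 8 to 13 weeks in HD mice was 4.02-fold over both regions (log2 -2.01, SE 0.125, edgeR adjusted p = 6.21e-05). By region it was 3.82-fold in striatum (edgeR adjusted p = 0.00742) and 4.24-fold in cortex (edgeR adjusted p = 0.00371). The striatal change less the cortical one was 0.15 log2 units (SE 0.252, edgeR adjusted p = 1). Leaving out replicate 2 of preHD striatum left the log2 change over both regions at -2.01.

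The share of Grm4 in the group III counts was also lowest in postHD. Of the counts of Grm4, Grm7 and Grm8 together, Grm4 gave 60.3% and 54.9% in WT cortex and 50.9% and 48.8% in preHD cortex. In postHD cortex it gave 23.5% (exact 95% interval 20.0% to 27.3%) and 26.3% (22.8% to 30.1%). In striatum its share was 79.1% and 81.2% in WT, 79.0% and 80.7% in preHD, and 63.3% and 56.4% in postHD. The postHD shares lay below all others of their region, and these intervals cover counting error only.

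Grm3, a group II receptor found on both neurons and astrocytes, followed at chr5:9485541-9725170. In striatum Grm3 was at 60.4 and 64.8 CPM in WT, 88.3 and 66.8 CPM in preHD, and 31.9 and 32.3 CPM in postHD. In cortex Grm3 was at 55.7 and 50.8 CPM in WT, 82.3 and 99.5 CPM in preHD, and 31.9 and 35.9 CPM in postHD. In both regions the preHD libraries were the highest and the postHD libraries the lowest, without overlap. Grm3 fell 2.52-fold with age in HD mice (log2 -1.34, SE 0.135, edgeR adjusted p = 0.00153). The cortical fall passed by itself (log2 -1.43, edgeR adjusted p = 0.0229), and the striatal one did not (log2 -1.23, edgeR adjusted p = 0.0641). Without replicate 2 of preHD striatum, which leaves 1 library in that group, the striatal fall was -1.45 and the cortical one -1.41. At 8 weeks Grm3 was 0.54 log2 units higher in HD than in WT, which missed the threshold (edgeR adjusted p = 0.171), and without replicate 2 of preHD striatum the difference was 0.64 (edgeR adjusted p = 0.0417).

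Promoter sequences, from 250 bases before to 50 bases after the annotated start, are shown for 3 of the genes that fell with age in HD mice, a receptor of each kind and a scaffold, so that the control regions of genes that moved together can be set side by side. They are RefSeq sequences on GRCm38.p6, and their starts need not match the GENCODE gene bounds printed here. The Grm3 window lies outside the bounds of its gene, and the Homer1 window lies inside them. Capitals mark GGGCGG, the GC box read by Sp1-type factors, or TGACG, the core of the cyclic AMP response element, on either strand (CCGCCC and CGTCA on the printed strand are the same letters on the other). Of the 11 protein-coding genes that fell, 8 had an entry. A GC box was in 5 of these 8 and the TGACG core in 3, compared to 35.7% and 20.8% of all 32851 promoters of this length. Dlgap3 and Dlg4 had neither, while the 3 shown all hold a match. Grm3 is at chr5:9725303-9725602 on the minus strand with 2 GC boxes, Grin1 at chr2:25319138-25319437 on the minus strand with 1 GC box and 2 TGACG cores, and Homer1 at chr13:93303507-93303806 on the plus strand with 3 TGACG cores. A match is a run of letters and not a binding site.
Grm3: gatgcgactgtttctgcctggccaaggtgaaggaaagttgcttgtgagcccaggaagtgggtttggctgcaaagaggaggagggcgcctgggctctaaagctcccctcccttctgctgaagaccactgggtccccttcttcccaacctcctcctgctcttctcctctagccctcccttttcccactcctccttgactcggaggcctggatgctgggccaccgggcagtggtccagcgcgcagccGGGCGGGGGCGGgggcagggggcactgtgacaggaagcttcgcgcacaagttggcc
Grin1: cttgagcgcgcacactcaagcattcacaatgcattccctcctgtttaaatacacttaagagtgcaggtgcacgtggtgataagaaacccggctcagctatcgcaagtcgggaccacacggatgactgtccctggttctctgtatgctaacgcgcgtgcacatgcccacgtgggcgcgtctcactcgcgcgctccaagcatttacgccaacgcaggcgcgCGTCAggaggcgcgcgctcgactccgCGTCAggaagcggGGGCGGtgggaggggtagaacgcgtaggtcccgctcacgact
Homer1: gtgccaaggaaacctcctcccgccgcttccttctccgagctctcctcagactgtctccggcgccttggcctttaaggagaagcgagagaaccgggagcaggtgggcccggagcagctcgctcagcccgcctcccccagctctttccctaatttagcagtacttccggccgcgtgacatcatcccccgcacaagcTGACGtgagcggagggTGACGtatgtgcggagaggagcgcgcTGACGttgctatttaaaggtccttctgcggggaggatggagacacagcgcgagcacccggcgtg

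Grm7, the group III receptor of the active zone, fell 1.47-fold with age in HD mice (log2 -0.55, SE 0.136, edgeR adjusted p = 0.0412). Its striatal level was 43.9 and 38.1 CPM in WT, 38.3 and 32.8 CPM in preHD, and 23.3 and 20.8 CPM in postHD, without overlap between the HD ages. In cortex Grm7 was at 31.4 and 30.6 CPM in WT, 32.7 and 40.0 CPM in preHD, and 26.6 and 26.9 CPM in postHD. The Grm7 call was the least firm of the 12, as it held in 4 of 13 alternative settings.

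Grm5, the group I receptor gene of mGlu5, had the highest mean level of its class. In striatum Grm5 was at 684 and 582 CPM in WT, at 595 and 215 CPM in preHD, and at 280 and 214 CPM in postHD, so that replicate 2 of preHD striatum sat with the postHD libraries. In cortex Grm5 was at 179 and 206 CPM in WT, at 260 and 249 CPM in preHD, and at 211 and 212 CPM in postHD. The change with age in HD mice over both regions was -0.47 log2 units (SE 0.274, edgeR adjusted p = 0.354). In striatum it was -0.67 (edgeR adjusted p = 0.551), and the striatal change less the cortical one was -0.39 (SE 0.568, edgeR adjusted p = 1). Without replicate 2 of preHD striatum the striatal change was -1.26, and the striatal change less the cortical one was -1.01. That fit leaves 1 library of preHD striatum, so no call is read from it.

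Among the other metabotropic genes, Grm2, of group II, was almost absent from striatum, at 0 to 1.31 CPM in all libraries but replicate 2 of preHD (5.81 CPM). In cortex Grm2 was at 28.4 and 24.9 CPM in WT, at 34.8 and 33.1 CPM in preHD, and at 6.36 and 14.1 CPM in postHD. Grm8, of group III, was at 14.4 to 17.3 CPM in WT and preHD cortex and at 8.94 and 10.7 CPM in postHD cortex, and its change over both regions was -0.28 log2 units (edgeR adjusted p = 0.692). All 7 tested metabotropic genes had a negative estimate, with a median of -0.78 log2 units.

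**Figure D2:**
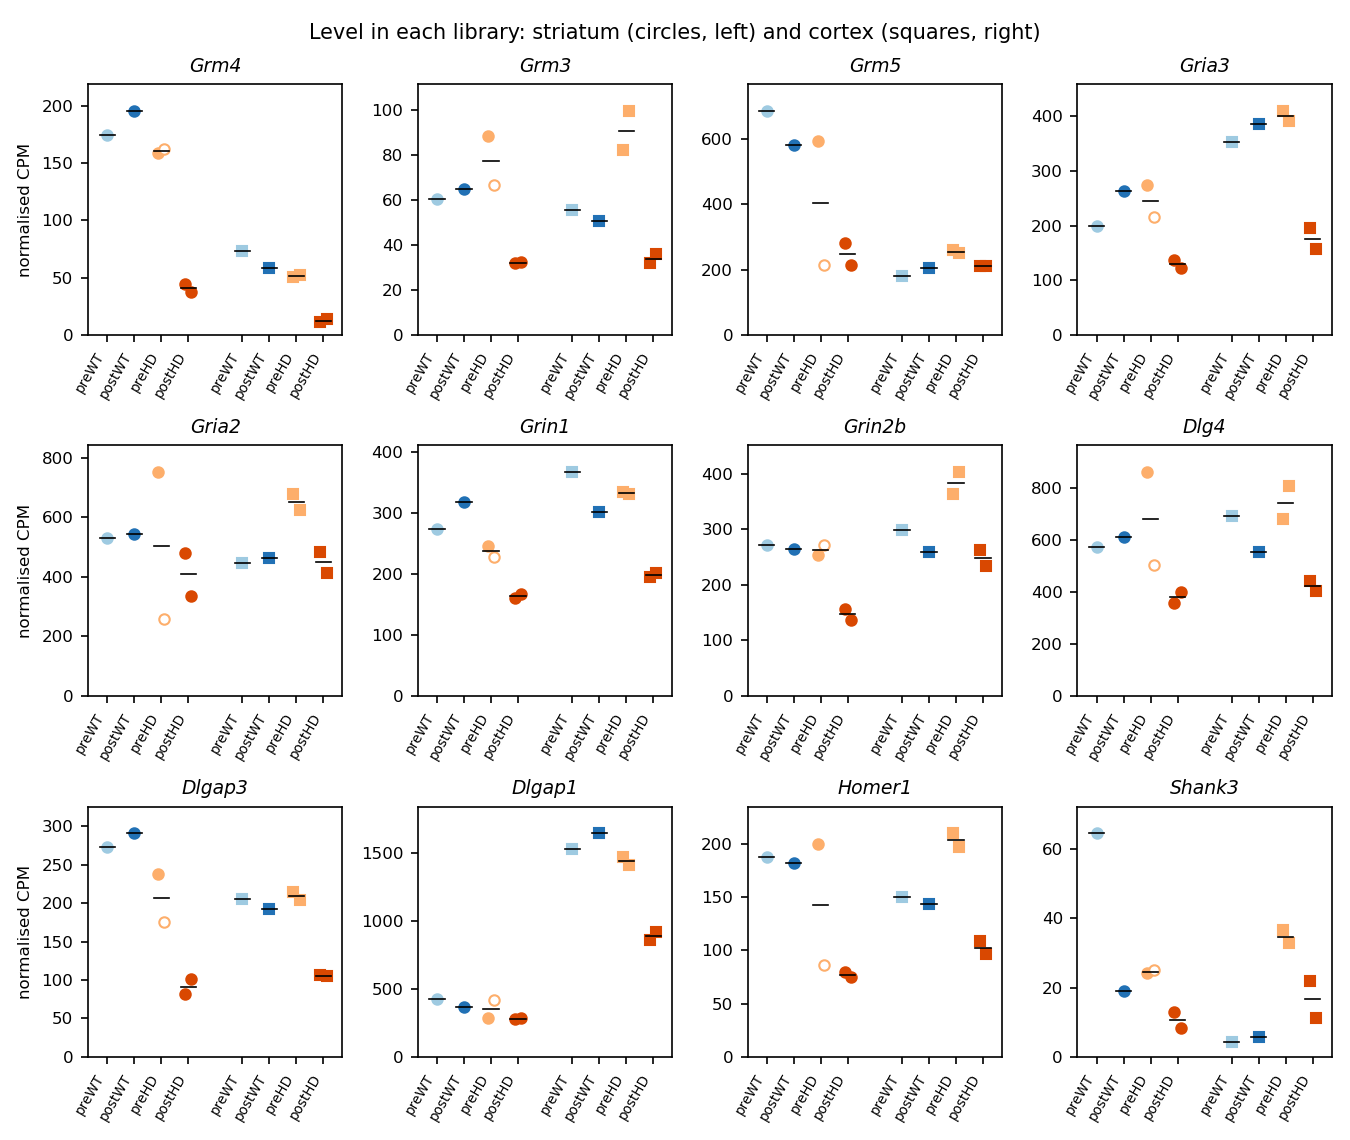
Normalised CPM of 12 glutamate receptor and scaffold genes in the 12 libraries, with striatum as circles on the left and cortex as squares on the right, grouped as preWT, postWT, preHD and postHD. Black lines are group means, and the open circle is replicate 2 of preHD striatum. Grm4 drops in postHD from 159 to 37.4 CPM in striatum and from 50.7 to 10.9 CPM in cortex between the lowest libraries, while Grm5 overlaps between ages in striatum.

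Of the AMPA receptor subunits, Gria3 fell with age in HD mice and the others did not pass the test. Gria3 encodes GluA3 and lies at chrX:41400854-41678601. In cortex Gria3 was at 352 and 386 CPM in WT, 409 and 391 CPM in preHD, and 195 and 157 CPM in postHD. In striatum Gria3 was at 199 and 262 CPM in WT, 275 and 215 CPM in preHD, and 136 and 123 CPM in postHD. The postHD libraries were below all others of their region. The fall was 2.06-fold over both regions (log2 -1.04, SE 0.129, edgeR adjusted p = 0.00357), and in cortex by itself it was -1.20 log2 units (edgeR adjusted p = 0.03).

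Gria2, whose edited subunit makes the receptor impermeable to calcium, had the highest mean level of its class over the 12 libraries, although Gria1 was above it in both WT striatum libraries. In striatum Gria2 was at 529 and 544 CPM in WT, at 751 and 257 CPM in preHD, and at 481 and 337 CPM in postHD. In cortex Gria2 was at 448 and 463 CPM in WT, at 679 and 626 CPM in preHD, and at 484 and 412 CPM in postHD. The postHD cortex libraries lay on either side of WT and below preHD. The change with age was -0.41 log2 units (SE 0.292, edgeR adjusted p = 0.465), and without replicate 2 of preHD striatum it was -0.67 (edgeR adjusted p = 0.00814). Gria1 was at 267 to 700 CPM and Gria4 at 17.7 to 42.3 CPM over all libraries.

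The make-up of the AMPA counts in cortex was different in postHD. Of the counts of Gria1 to Gria4 together, Gria3 gave 30.8% (exact 95% interval 30.0% to 31.6%) and 31.0% in WT cortex and 27.9% and 28.6% in preHD cortex. In postHD cortex it gave 19.1% (18.4% to 19.8%) and 17.7% (16.9% to 18.4%). In striatum the share of Gria3 was 15.2% and 17.8% in WT, 15.7% and 27.5% in preHD, and 13.1% and 15.0% in postHD, with the value of 27.5% from replicate 2 of preHD. The cortical shares did not overlap between postHD and the other groups, and the striatal ones of postHD were the lowest by a small margin.

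**Figure D3:**
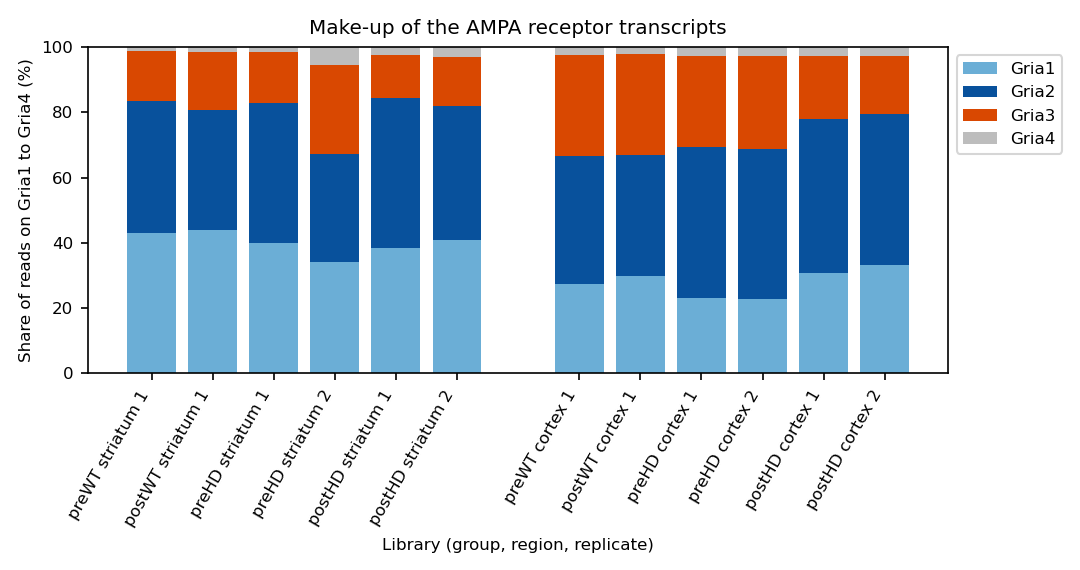
Share of Gria1, Gria2, Gria3 and Gria4 in the counts of the AMPA receptor genes, as stacked bars in percent for each of the 12 libraries. In cortex the Gria3 segment is 27.9% to 31.0% in the WT and preHD libraries and 17.7% and 19.1% in postHD.

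In the NMDA group, Grin1, Grin1os and Grin2b fell with age in HD mice. Grin1 encodes GluN1, the subunit that every NMDA receptor needs, and lies at chr2:25291181-25319187. In striatum Grin1 was at 273 and 318 CPM in WT, 246 and 227 CPM in preHD, and 161 and 166 CPM in postHD. In cortex Grin1 was at 366 and 301 CPM in WT, 334 and 330 CPM in preHD, and 194 and 202 CPM in postHD. Again the postHD libraries were the lowest of each region. The fall was 1.54-fold (log2 -0.63, SE 0.102, edgeR adjusted p = 0.00945).

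Grin1os lies inside Grin1 on the opposite strand at chr2:25291220-25298925. Its edge at 25291220 stops just short of the 3′ end of Grin1 at 25291181, so reads from that end can fall inside Grin1os. Its own 3′ end lies within Grin1. Its counts were 70.6% to 87.2% of those of Grin1 in the same library. In striatum Grin1os was at 216 and 276 CPM in WT, 214 and 194 CPM in preHD, and 132 and 131 CPM in postHD. In cortex Grin1os was at 317 and 257 CPM in WT, 266 and 273 CPM in preHD, and 154 and 142 CPM in postHD. It fell 1.67-fold (log2 -0.74, SE 0.104, edgeR adjusted p = 0.00525). Whether strand was used in counting is not given in the sources used here, so reads of this pair may be split between the genes, and they are not independent measurements.

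Grin2b, the GluN2B subunit with slow kinetics, lies at chr6:135713233-136173511. In striatum Grin2b was at 272 and 264 CPM in WT, at 253 and 271 CPM in preHD, and at 157 and 137 CPM in postHD. In cortex Grin2b was at 299 and 259 CPM in WT, at 365 and 403 CPM in preHD, and at 262 and 234 CPM in postHD. The postHD cortex libraries were below preHD, but replicate 1 was not below the WT library of the same age. The fall was 1.65-fold (log2 -0.72, SE 0.108, edgeR adjusted p = 0.00649). Grin2c, a subunit expressed in glia and cerebellum among other places, was at 21.2 to 75.2 CPM and just missed the threshold (log2 -0.85, edgeR adjusted p = 0.0509). Grin2a was nearly silent in these 3′ counts, at 0.0954 to 0.508 CPM in WT and 0.515 to 3.75 CPM in HD libraries. The glycine-binding subunits Grin3a and Grin3b were at 15.5 to 33.8 CPM and 20.8 to 34.0 CPM and did not pass. The 3′ end of Grin3b overlaps Tmem259, so its reads are uncertain.

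No kainate or delta receptor gene passed the test with age in HD mice (edgeR). All 5 kainate genes had a negative estimate, with a median of -0.35 log2 units. Grik5, the kainate gene with the highest mean, was at 45.4 and 36.2 CPM in WT striatum, at 43.7 and 29.4 CPM in preHD, and at 24.6 and 29.4 CPM in postHD. In cortex Grik5 was at 35.4 and 36.1 CPM in WT, at 44.8 and 45.9 CPM in preHD, and at 32.6 and 43.9 CPM in postHD. The HD ages came close to each other in both regions, and the change was -0.33 log2 units (SE 0.163, edgeR adjusted p = 0.272). Grik2, the pore-forming subunit GluK2, was at 38.0 to 44.4 CPM in WT striatum, at 40.1 and 16.5 CPM in preHD, and at 20.5 and 12.5 CPM in postHD, while its cortical level stayed within 8.74 to 15.1 CPM in all libraries. Grik3 was at 22.1 to 44.0 CPM in WT striatum and at 12.1 to 19.6 CPM in HD striatum, and in cortex at 20.1 to 26.3 CPM in WT and at 14.7 to 16.03 CPM in HD. Every HD library of Grik3 was thus below the WT libraries of its region, and its change with age in HD mice was -0.12 log2 units (edgeR adjusted p = 0.746). Grik1 was at 1.24 to 13.7 CPM and Grik4 at 4.85 to 15.7 CPM.

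Grid1, the delta receptor that bridges synapses with secreted cerebellin, was at 36.1 and 44.6 CPM in WT striatum, at 34.7 and 21.8 CPM in preHD, and at 21.9 and 23.4 CPM in postHD. In cortex Grid1 was at 28.5 and 31.2 CPM in WT, at 19.4 and 17.2 CPM in preHD, and at 15.9 and 25.8 CPM in postHD. Every cortical HD library was below both cortical WT libraries, while the HD ages overlapped. The change with age in HD mice was -0.05 log2 units (SE 0.213, edgeR adjusted p = 0.92).

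Among the scaffolds, 5 genes fell with age in HD mice, from each of the Dlg, Dlgap, Shank and Homer families. Dlgap3 (SAPAP3), whose loss in mice alters synapses of cortex onto striatum, fell 2.10-fold (log2 -1.07, SE 0.125, edgeR adjusted p = 0.00275) and lies at chr4:127169204-127237022. In striatum Dlgap3 was at 274 and 291 CPM in WT, at 237 and 176 CPM in preHD, and at 81.2 and 101 CPM in postHD. In cortex Dlgap3 was at 205 and 193 CPM in WT, at 214 and 204 CPM in preHD, and at 106 and 105 CPM in postHD. The postHD libraries were below every other library in both regions.

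Dlg4 encodes PSD-95, the most abundant scaffold of the excitatory synapse, and lies at chr11:70016942-70047522. In striatum Dlg4 was at 574 and 614 CPM in WT, at 862 and 503 CPM in preHD, and at 359 and 400 CPM in postHD. In cortex Dlg4 was at 693 and 556 CPM in WT, at 683 and 808 CPM in preHD, and at 445 and 404 CPM in postHD. The postHD libraries were the lowest of each region. Dlg4 fell 1.76-fold (log2 -0.82, SE 0.157, edgeR adjusted p = 0.0169). Of the 5 Dlg genes tested, 4 had a negative estimate and Dlg5 a positive one (log2 0.49, edgeR adjusted p = 0.0801). Dlg5 was at 28.4 and 28.8 CPM in preHD striatum and 31.4 to 40.0 CPM in postHD striatum, and at 18.0 to 21.9 CPM in preHD cortex and 29.1 to 32.5 CPM in postHD cortex. Dlg1 (SAP97) was at 84.4 to 131 CPM over all libraries, and Dlg3 (SAP102) was at 255 to 302 CPM in WT and 139 to 243 CPM in HD libraries. Dlg2 changed by -0.55 log2 units (edgeR adjusted p = 0.153), and it joined the calls without replicate 2 of preHD striatum (log2 -0.71, edgeR adjusted p = 0.0146).

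Dlgap4 fell 1.39-fold (log2 -0.47, SE 0.106, edgeR adjusted p = 0.0281), the smallest change among the genes that passed. In striatum Dlgap4 was at 399 and 372 CPM in WT, at 464 and 374 CPM in preHD, and at 284 and 303 CPM in postHD. In cortex Dlgap4 was at 521 and 464 CPM in WT, at 506 and 470 CPM in preHD, and at 368 and 342 CPM in postHD. The postHD libraries were again the lowest of each region.

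Dlgap1 had the highest mean level of its class over the 12 libraries, and in cortex it was above Dlg4, while in every striatum library Dlg4 was higher. In cortex Dlgap1 was at 1529 and 1648 CPM in WT, at 1473 and 1412 CPM in preHD, and at 858 and 917 CPM in postHD, a clear separation. In striatum Dlgap1 was at 426 and 371 CPM in WT, at 287 and 420 CPM in preHD, and at 282 and 283 CPM in postHD, where replicate 1 of preHD was close to postHD. The change with age over both regions was -0.50 log2 units and missed the threshold (edgeR adjusted p = 0.0762). Dlgap2 was at 108 and 122 CPM in preHD cortex, above the 52.7 to 54.4 CPM of WT and postHD cortex, and at 94.1 and 25.4 CPM in preHD striatum. Its change was -0.98 log2 units (SE 0.387, edgeR adjusted p = 0.186), and without replicate 2 of preHD striatum it was -1.27 (edgeR adjusted p = 0.00514).

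Homer1, whose long forms tie Shank to group I receptors and whose short form is an activity-induced gene, fell 1.90-fold (log2 -0.92, SE 0.214, edgeR adjusted p = 0.0373). It lies at chr13:93299635-93405129, and a 3′ count does not separate its forms. In striatum Homer1 was at 187 and 182 CPM in WT, at 199 and 86.2 CPM in preHD, and at 79.5 and 74.8 CPM in postHD. In cortex Homer1 was at 150 and 144 CPM in WT, at 210 and 197 CPM in preHD, and at 108 and 96.5 CPM in postHD. The postHD libraries were lowest in both regions, by a small margin to replicate 2 of preHD striatum. Homer2 is a related linker. In striatum Homer2 was at 36.4 to 49.4 CPM in HD except for 131 CPM in replicate 2 of preHD, and in cortex at 173 and 167 CPM in preHD and 96.2 and 84.5 CPM in postHD. With all libraries Homer2 changed by -0.88 log2 units in striatum and -0.92 in cortex, a difference of 0.04 (SE 0.723, edgeR adjusted p = 1). Without that library, which leaves 1 library of preHD striatum, the difference was 1.20. Homer3 was at 17.0 to 23.6 CPM in all libraries, and its 3′ end overlaps Ddx49.

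Shank3, the member of its family whose loss alters striatal synapses in mice, fell 2.17-fold with age in HD mice (log2 -1.12, SE 0.222, edgeR adjusted p = 0.0184) and lies at chr15:89499623-89560261. In striatum Shank3 was at 64.6 and 18.9 CPM in the WT libraries of 8 and 13 weeks, at 24.1 and 25.1 CPM in preHD, and at 13.1 and 8.45 CPM in postHD. In cortex Shank3 was at 4.17 and 5.67 CPM in WT, at 36.6 and 33.0 CPM in preHD, and at 21.9 and 11.3 CPM in postHD. All 4 cortical HD libraries were thus above both cortical WT libraries, whereas the striatal HD libraries of 8 weeks were below the WT library of that age. At 8 weeks the genotype difference was 3.06 log2 units in cortex (SE 0.48, edgeR adjusted p = 0.213) and -1.40 in striatum (edgeR adjusted p = 0.189). The striatal difference less the cortical one was -4.45 (SE 0.608, edgeR adjusted p = 0.188). Without replicate 2 of preHD striatum the cortical value stayed at 3.06 and the regional difference was -4.48. That fit changes no cortex library and leaves 1 library of preHD striatum, so no call is read from it.

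**Figure D4:**
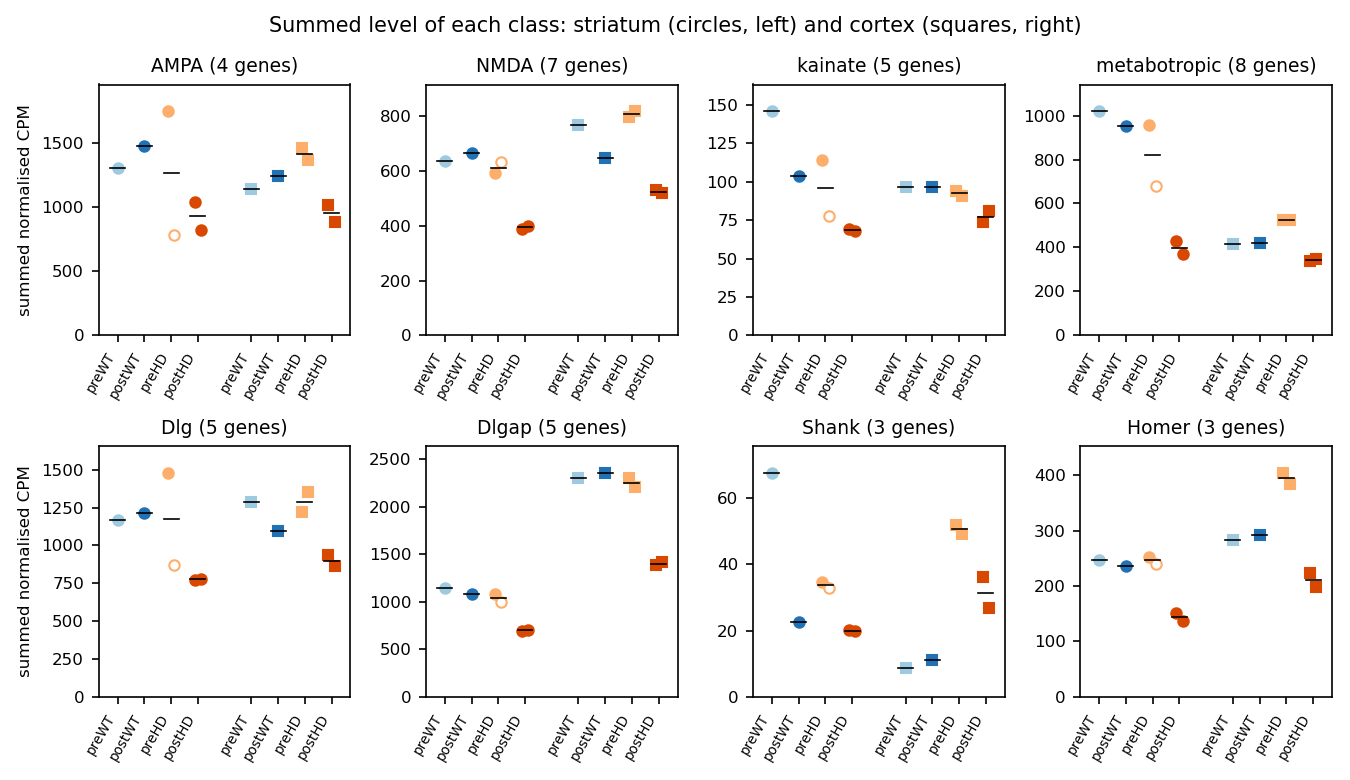
Summed normalised CPM of 8 gene classes (AMPA, NMDA without Grin1os, kainate, metabotropic, Dlg, Dlgap, Shank and Homer) in each library, with striatum as circles, cortex as squares, black lines for group means and an open circle for replicate 2 of preHD striatum. In cortex the postHD sums lie below the preHD sums in all 8 classes shown, and below WT in all but Shank.

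Summed by class, without Grin1os, the postHD libraries were below the preHD libraries in 8 of 9 classes in cortex, delta being the exception, and in 7 of 9 in striatum, AMPA and delta being the exceptions. They were below both WT libraries in 9 of 9 classes in striatum and 8 of 9 in cortex, where Shank was above. The metabotropic sum was at 1019 and 953 CPM in WT striatum, at 957 and 682 CPM in preHD, and at 428 and 369 CPM in postHD. The Dlgap sum in cortex was at 2309 and 2359 CPM in WT, at 2302 and 2209 CPM in preHD, and at 1385 and 1417 CPM in postHD. In striatum the mean sum of preHD over that of postHD was largest for metabotropic receptors (2.06) and smallest for delta receptors (1.24). These sums are a description, with no test and no share of all genes beside them. They follow the most abundant genes of a class. In striatum Grm5 gave 595 and 215 CPM of the preHD metabotropic sums and 280 and 214 CPM of the postHD ones. A lower sum is therefore not a fall of each gene in the class.

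By region, Grm4 was the only gene past the threshold in striatum (1 of 40, compared to 0.16% of all genes), and Grm4, Grm3, Gria3 and Grin1os passed in cortex (4 of 40, compared to 0.591% of all genes). The median estimate of the 40 genes was -0.55 log2 units in striatum and -0.54 in cortex. Without replicate 2 of preHD striatum these medians were -0.63 and -0.51, compared to 0.02 over all genes in each region. Without replicate 1 of preHD striatum they were -0.36 and -0.53. In both cases more of the 40 genes passed, as did more of all genes. The Grm4 call in striatum was lost without either postHD striatum library or replicate 1 of preHD cortex. In cortex 0 passed without any single HD cortex library and 1 without either postHD striatum library. No gene passed the test of the striatal change less the cortical change (edgeR, 0 of 40 at an unadjusted p under 0.05 as well, compared to 519 of all genes, and 0 with DESeq2). A call in one region and not in the other is therefore not shown to be a difference between regions.

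**Figure D5:**
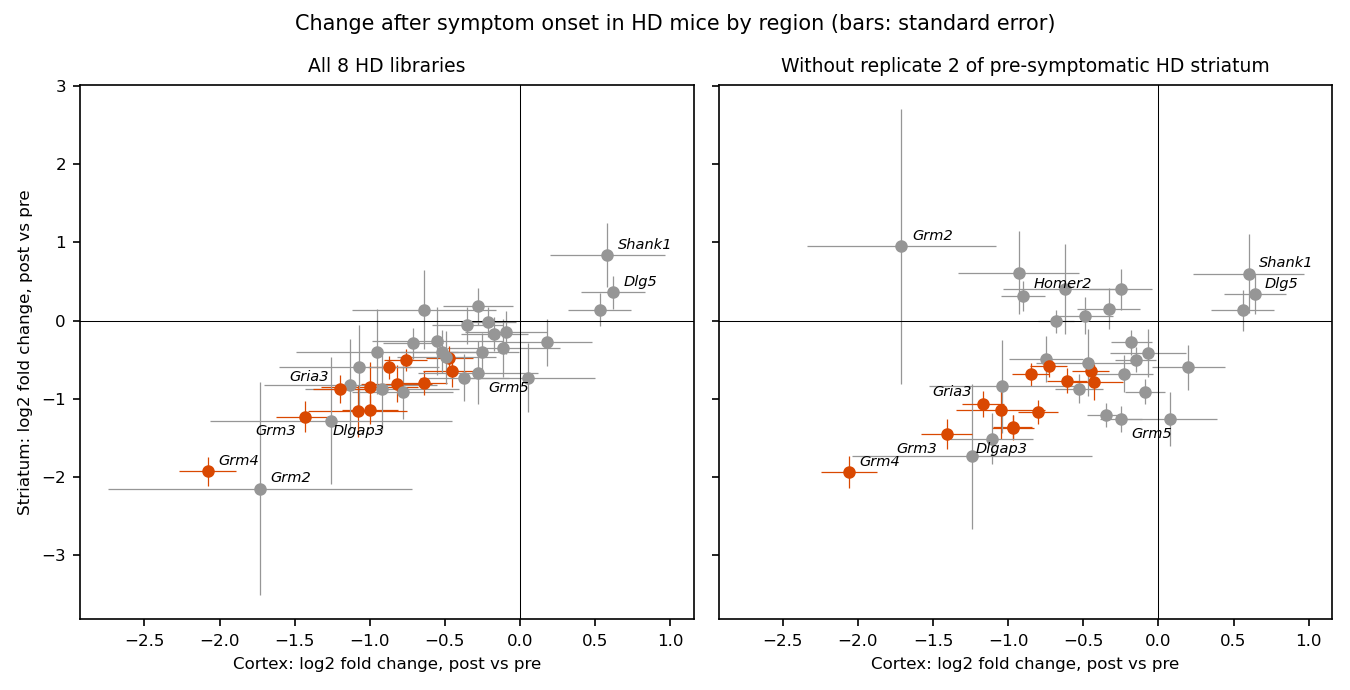
Change from 8 to 13 weeks in HD mice in cortex (horizontal) and striatum (vertical), in log2 units with standard errors as bars and a point per gene, with all 8 HD libraries on the left and without replicate 2 of preHD striatum on the right. Orange points passed the test over both regions together. Grm4 sits at -2.08 in cortex and -1.93 in striatum in the left plot, and Grm5 moves down to -1.26 in striatum in the right plot.

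The comparison of HD with WT mice used the same HD libraries as the comparison of ages, so these comparisons share samples and are given side by side. At 13 weeks 8 of 40 genes differed over both regions, 7 lower and 1 higher in HD, while 4.26% of all genes were lower, 3.1% higher and 7.36% different in either direction. The lower genes were Grm4, Gria3, Dlgap3, Grin1os, Grin1, Grm3 and Dlgap1, and the higher one was Shank1. Grm4 was 4.77-fold lower (log2 -2.25, SE 0.145, edgeR adjusted p = 2.34e-05), and this held in all 18 alternative settings. Dlgap3 was lower by 1.29 log2 units (SE 0.188, edgeR adjusted p = 0.00303) and Gria3 by 1.07 (SE 0.148, edgeR adjusted p = 0.00238). Grin1os was lower by 0.94 (edgeR adjusted p = 0.00348), Grin1 by 0.79 (edgeR adjusted p = 0.00617), Grm3 by 0.81 (edgeR adjusted p = 0.0142) and Dlgap1 by 0.64 (edgeR adjusted p = 0.0346). Only the Grm4 call was left without the WT striatum library of 13 weeks. The median estimate was -0.50 log2 units with all libraries, -0.49 without replicate 2 of preHD striatum and -0.51 without its replicate 1. In both of these fits more of the genes passed, as did more of all genes. Since these groups also differ in Rn45s counts, its part in the genotype differences was not tested.

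In the libraries themselves, 19 of 39 genes (48.7%) had all postHD values below both WT values in both regions, compared to 16.2% of all genes. Taken by region at 13 weeks, Grm4, Dlgap3, Grin1os and Grin1 were lower in striatum (4 of 40, compared to 0.724% of all genes), and Grm4 was lower in cortex (1 of 40, compared to 0.111% of all genes), by 2.27 log2 units (edgeR adjusted p = 0.0168). Without either preHD striatum library the median estimate of the 40 genes stayed at -0.57 log2 units in striatum and -0.25 in cortex. Over all genes these medians were 0.02 and 0.01. More of the 40 genes then passed in each region, as did more of all genes. In striatum 1 passed without any single HD cortex library and 0 without either postHD striatum library, and in cortex 0 passed without any single HD cortex library.

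Shank1 at 13 weeks and Shank2 at 8 weeks, both low in these 3′ counts, were past the threshold on the higher side in HD. At 13 weeks this was 1 of 40 genes, compared to 3.1% of all genes, so it does not set these genes apart. The postHD values were above both WT values in both regions for 10.3% of the 39 genes, compared to 15.1% of all genes. Shank1 was at 1.91 and 2.19 CPM in WT striatum, at 3.40 and 2.48 CPM in preHD, and at 4.47 and 5.78 CPM in postHD. In cortex Shank1 was at 3.23 and 4.32 CPM in WT, at 7.65 and 6.42 CPM in preHD, and at 8.16 and 13.0 CPM in postHD. Every HD library was above the WT libraries of its region. At 13 weeks Shank1 was 2.39-fold higher in HD (log2 1.26, SE 0.338, edgeR adjusted p = 0.0431), a call that held in 7 of 18 alternative settings. Its 3′ end overlaps 1700008O03Rik on the opposite strand, which was at 140 to 168 CPM in WT and preHD cortex and at 79.8 and 69.8 CPM in postHD cortex, so its reads are uncertain.

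Shank2 was at 1.10 and 1.43 CPM in WT striatum, at 7.26 and 5.28 CPM in preHD, and at 2.52 and 5.56 CPM in postHD. In cortex Shank2 was at 1.27 CPM in both WT libraries, at 7.75 and 9.90 CPM in preHD, and at 6.01 and 2.47 CPM in postHD. Again every HD library was above WT. At 8 weeks Shank2 was the only gene past the threshold (1 of 40, compared to 2.1% of all genes), 6.25-fold higher in HD (log2 2.64, SE 0.513, edgeR adjusted p = 0.0214). The call was lost without either preHD cortex library, without either WT library of 8 weeks and with voom. By region, 0 of 40 genes passed at 8 weeks in striatum (edgeR, 8 at an unadjusted p under 0.05 and 0.228% of all genes past the threshold) and 0 of 40 in cortex (4 at an unadjusted p under 0.05 and 0.0% of all genes). The median estimate in striatum was -0.04 log2 units, and -0.10 without replicate 1 of preHD striatum, which leaves replicate 2 alone. In cortex it was 0.09 with all libraries and without either preHD striatum library. In these fits more of the 40 genes passed, as did more of all genes. Genes with all 8 HD libraries above all WT libraries in both regions were Grin2a, Shank1 and Shank2 (7.69%), compared to 6.0% of all genes. For Grin2a this rests on scaling in cortex, where replicate 1 of postHD and the postWT library both had 6 counts. Grm4 at 8 weeks was 0.33 log2 units lower in HD (edgeR adjusted p = 0.343).

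In WT mice no gene changed between 8 and 13 weeks (edgeR, 0 of 40, also at an unadjusted p under 0.05, compared to 267 of all genes), with 1 library per group and 0.0136% of all genes past the threshold. Grm4 differed by -0.09 log2 units (SE 0.171) and Gria3 by 0.26 (SE 0.176). The change with age in HD less that in WT passed for Grm4 (log2 -1.93, SE 0.213, edgeR adjusted p = 0.0102) and Gria3 (log2 -1.31, SE 0.217, edgeR adjusted p = 0.049), 2 of 40 genes compared to 0.116% of all genes. Neither passed without the WT striatum library of 8 or of 13 weeks. Grm3 had an estimate of -1.35 and missed the threshold (edgeR adjusted p = 0.0692).

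Between regions, 14 of 40 genes differed over all 12 libraries, 4 higher in striatum and 10 higher in cortex, compared to 8.51% and 12.1% of all genes (20.6% in all). Dlgap1 was 3.71-fold lower in striatum (log2 -1.89, SE 0.116, edgeR adjusted p = 7.44e-07). Grm4 was 3.09-fold higher in striatum (log2 1.63, SE 0.103, edgeR adjusted p = 9.13e-07), with Grik2 among the others higher there (log2 1.22, edgeR adjusted p = 0.0129). The genes higher in cortex beside Dlgap1 were Grm2 (-3.90 log2 units, the widest gap), Grm8, Homer2, Shank1, Grik4, Gria3, Grin2b, Grin1 and Dlgap4. Without the WT cortex library of 8 weeks 9 genes passed. Grm5 was at 0.86 log2 units in favour of striatum and missed the threshold (edgeR adjusted p = 0.0651), and it passed without replicate 2 of preHD striatum.

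Partners of these proteins, in 7 lists of 84 genes, were read beside them. The lists were chosen with earlier results of these data known, so their counts beside the share of all genes are a description. From 8 to 13 weeks in HD mice 17 of 82 tested partners fell and 2 rose, compared to 4.53% and 1.93% of all genes, which is also the background of the counts by list that follow. The largest block was signalling of the postsynaptic density, with 9 of 21 lower, among them Camk2a (log2 -1.29, edgeR adjusted p = 0.011), the kinase of synaptic plasticity, Kalrn (-1.23), a spine exchange factor, Nrgn (-1.10), a calmodulin buffer, and Synpo (-1.03), a spine actin protein. Of 13 AMPA receptor auxiliary genes 3 were lower (Gsg1l, Frrs1l and Cacng2) and Cacng7 was higher on 0 to 30 counts. Gsg1l, an auxiliary subunit that dampens AMPA receptor currents, fell from 117 and 51.4 CPM in preHD striatum to 16.5 and 20.5 CPM in postHD striatum, and from 69.1 and 76.4 CPM to 27.2 and 16.8 CPM in cortex (log2 -1.94, edgeR adjusted p = 0.00597). Group I receptor signalling had 2 of 10 lower (Dgkz and Plcb1), kainate auxiliaries 1 of 2 (Neto2), receptor trafficking 1 of 11 (Lin7b) and trans-synaptic adhesion 0 of 13. In glutamate supply and uptake Slc1a2 fell and Slc1a6 rose (log2 1.03, edgeR adjusted p = 0.017) among 12.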

How the data were processed

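Libraries were made by the authors from 500 ng of Trizol-extracted total RNA with the QuantSeq 3′ kit, and the raw read counts per gene symbol that the authors deposited were used for all 12 libraries. The submitters' processing notes name Bowtie2, bedtools and the mm10 build. Their versions, settings and use of strand are not given in the sources used here. Every table held 23282 named rows.

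Counts were tested in edgeR 4.0.16 (R 4.3.3) with TMM scaling, filterByExpr (minimum count 10), the robust quasi-likelihood test and Benjamini-Hochberg adjustment over all genes tested, at 0.05. The 8 HD libraries gave the changes with age in HD mice (additive region term, or group means by region), and the 12 libraries gave all other comparisons. Of the 43 genes, 4 were too low for the first fit and 3 for the others. Fits were tested on simulated data. Alternatives were DESeq2 1.42.0, limma 3.58.1 (voom), upper-quartile scaling, no filter, a replicate block, a sex term and leaving out each library. Annotation came from GENCODE M21 and promoters from RefSeq. Libraries of 8814386 to 12091201 counts give intervals for counting error only.

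Genes were described with every library's value if they were Grm4, passed over both regions or in a test of a difference (at most 10 a comparison by adjusted p, with others that passed added), or had the highest mean of their class. The genes and lists were chosen with earlier results of these data known, and members outside this rule (such as Homer2, Grm2, Grin2c and Grik3) were named after their values were seen. Some genes are not reported here by name or drawn, though counts and sums include them. The difference between regions in genotype effects was added after the data were seen.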

Additional observations from a re-analysis of the deposited data

Results flagged for a closer look

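An interaction test (edgeR, over both regions) gave 2 genes whose change from 8 to 13 weeks was not the same in HD as in WT. For Grm4 the change in HD less that in WT was -1.93 log2 units (SE 0.213, edgeR adjusted p = 0.0102). Its level stayed between 58.4 and 73.2 CPM in WT cortex and between 175 and 195 CPM in WT striatum, while the 4 postHD libraries were below the preHD libraries of their region. Without the WT striatum library of 13 weeks the Grm4 estimate was -1.86 (edgeR adjusted p = 0.0793), without that of 8 weeks it was -1.71 (edgeR adjusted p = 0.136), and with sex as a term it was -1.91 (edgeR adjusted p = 0.0503). The other 15 alternatives kept it past the threshold.

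For Gria3 the same difference was -1.31 log2 units (SE 0.217, edgeR adjusted p = 0.049), and it kept its side of the threshold in 5 of 18 alternative settings (-1.53 to -1.19, edgeR, voom or DESeq2 adjusted p 2.47e-05 to 0.431). By sex-linked genes the WT libraries of 8 weeks were male and those of 13 weeks female, so age and sex cannot be told apart in WT mice.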

How the results depend on the processing

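Of 744 alternative values for the genes that passed a test, 574 stayed past the threshold, 170 lost it and 0 reversed. For the change with age in HD mice, Grm4, Grm3, Dlgap3, Gria3, Grin1os and Grin2b passed in all 13 alternatives, Shank3 and Grin1 in 9, Dlg4 in 8, Dlgap4 in 7, Homer1 in 6 and Grm7 in 4. Counts of genes past the threshold moved as follows. In HD striatum with age (1) they were 3 with 8 group means over all libraries, 8 with DESeq2 and 5 with no filter, and in HD cortex (4) they were 9 with DESeq2 and 2 with upper-quartile scaling. For HD against WT at 8 weeks (1) they were 3 with DESeq2 and 0 with voom, and in cortex alone (0) they were 1 with DESeq2 and 1 with no filter. For HD against WT at 13 weeks they were 8 with DESeq2 and 2 with the replicate block in striatum (4), and 2 with DESeq2 and 2 with no filter in cortex (1). For the change with age in HD less WT (2) they were 5 with DESeq2, 0 with a sex term and 1 with upper-quartile scaling. In these cases the cause was not tested.

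Leaving out each library in turn gave 6 to 15 genes for age in HD mice, 0 to 14 in cortex, 0 to 16 in striatum and 0 to 2 for striatum less cortex. It gave 1 to 13 for HD against WT at 13 weeks (0 to 7 in cortex, 0 to 17 in striatum), 0 to 2 at 8 weeks (0 to 1 in cortex, 0 to 14 in striatum), 0 to 5 for the change in HD less WT, and 9 to 16 between regions. A group left with 1 library was assumed to vary like the others. Whether same-numbered libraries come from the same mouse is not given in the sources used here. Their deviations from the group means correlated at 0.00237 to 0.185 (0.166 between postHD regions and 0.0995 between preHD regions), and same-numbered HD libraries shared a sex, which does not settle it. With the replicate block the counts were 13 for age in HD mice, 7 for HD against WT at 13 weeks and 15 between regions. In the HD libraries sex follows the replicate number, so a sex term was fitted over all 12 libraries only. At this depth, differences in Grm6, Dlgap5 and Grin2d were not detectable in most libraries.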

Other observations

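At 13 weeks 11 of 83 tested partner genes were lower in HD than in WT mice and 0 were higher (edgeR, adjusted p under 0.05), compared to 4.26% and 3.1% of all genes. As above, these lists were chosen with earlier results of these data known. Gsg1l, an AMPA receptor auxiliary gene, was lower by 2.81 log2 units (edgeR adjusted p = 0.00218), and Arc, the activity-induced gene that removes AMPA receptors from synapses, by 2.74 (edgeR adjusted p = 0.00806). Nrgn was lower by 1.62, Kalrn and Lin7b by 1.40 each, Synpo by 1.38 and Itpr1, the calcium release channel below group I receptors, by 1.37. Dclk1, Cacng2, Camk2a and Frrs1l were lower by 0.99, 0.85, 0.83 and 0.56. At 8 weeks 1 of 83 partners was past the threshold, compared to 2.1% of all genes, the kinase gene Tnik, which was 0.88 log2 units higher in HD (edgeR adjusted p = 0.0163).

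Choroid plexus markers summed to 2988 CPM in replicate 2 of postHD cortex and 67 CPM in replicate 1, and to 940 CPM in replicate 2 of preHD striatum and 1.76 CPM in replicate 1.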
